A study of Mus musculus with 6 samples.

Results

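The unfolded protein response of the endoplasmic reticulum (ER) was followed in liver tumors of mice through 33 genes: the ER chaperones and folding enzymes, the genes of ER-associated degradation, the stress sensors with their transcription factors, and the Perk/Atf4 arm. Members were taken by name, as probes whose gene name, or the current symbol of whose accession, is on the list of 33. They were covered by 43 of the 55681 probes of the array, and all 33 were among the 18648 genes tested. Gene expression had been measured in 3 normal livers and 3 liver tumors of male C3H/HeN mice, a strain in which liver tumors arise spontaneously. The mice were untreated F2 animals, descended from the control group of a project on arsenic exposure in gestation, fed a standard diet and aged 74 to 75 weeks. By the methods of the study the tumors carried a Ha-ras mutation, so that tissue and mutation differ together between the groups. Each sample was whole tissue, and its total RNA was read on 1 array with the dye Cy3. Nothing in the labels says which samples come from separate animals, and p-values therefore measure only the spread between these samples.

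Secretory cells such as hepatocytes fold large amounts of plasma protein in the ER. When unfolded protein accumulates there, 3 sensors respond. Ire1 (gene Ern1) splices the mRNA of Xbp1, Atf6 is cut to release a transcription factor, and Perk (gene Eif2ak3) phosphorylates the initiation factor eIF2alpha, which slows translation and favours that of Atf4. Atf6 and spliced Xbp1 are known to raise chaperones and degradation genes through the ER stress response element (ERSE) of their promoters, while Atf4 and its partners act on C/EBP-ATF composite sites (CARE) of genes for stress factors and amino acid supply. The 15 chaperones and folding enzymes and the 7 degradation genes are called the Atf6/Xbp1 arm here, and Atf4, Atf5, Ddit3, Trib3, Chac1 and Ppp1r15a the Perk/Atf4 arm.

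The promoter stretches that carry these elements are shown because some genes of the Atf6/Xbp1 arm hold a known response element there and others do not. RefSeq promoters of GRCm38.p6, running from 250 bases before to 50 bases after the annotated start, were at hand for 29 of the 33 members. Hyou1, Manf, Derl1 and Atf6 had no entry. The ERSE was searched on both strands as CCAAT, any 9 bases and CCACG, and stood in the promoter of 9 of the 29 members, against 37 of all 27025 genes with a promoter (0.137%). It was found in 7 of 13 chaperones and folding enzymes, in 2 of 6 degradation genes, and in 0 of 4 sensors and transcription factors and 0 of 6 genes of the Perk/Atf4 arm. The stretches are printed on the strand of the gene from 5′ to 3′, upstream of the start only, in lower case with the match in capitals. A match that reads CGTGG first and ATTGG last lies on the opposite strand.
Hspa5, chr2:34772005-34772063, plus strand: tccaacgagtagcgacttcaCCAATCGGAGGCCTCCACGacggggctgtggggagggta
Hsp90b1, chr10:86705513-86705676, minus strand, with 2 matches: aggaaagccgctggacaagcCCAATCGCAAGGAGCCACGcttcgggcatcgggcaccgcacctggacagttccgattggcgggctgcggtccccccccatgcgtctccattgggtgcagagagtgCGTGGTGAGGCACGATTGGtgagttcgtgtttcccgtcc
Calr, chr8:84847055-84847113, minus strand: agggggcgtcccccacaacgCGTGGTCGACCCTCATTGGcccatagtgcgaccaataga
Canx, chr11:50325780-50325838, minus strand: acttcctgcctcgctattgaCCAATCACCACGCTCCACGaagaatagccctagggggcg
Pdia6, chr12:17266471-17266529, plus strand: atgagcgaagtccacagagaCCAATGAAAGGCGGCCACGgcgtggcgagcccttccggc
Dnajc3, chr14:118937807-118937865, plus strand: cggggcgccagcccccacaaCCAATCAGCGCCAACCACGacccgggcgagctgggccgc
Creld2, chr15:88819500-88819558, plus strand: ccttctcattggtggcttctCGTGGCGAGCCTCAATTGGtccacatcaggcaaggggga
Syvn1, chr19:6046512-6046570, plus strand: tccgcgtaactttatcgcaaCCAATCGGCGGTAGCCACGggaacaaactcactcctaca
Derl3, chr10:75893222-75893280, plus strand: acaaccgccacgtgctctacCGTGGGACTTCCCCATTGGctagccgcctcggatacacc

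The related element ERSE-II, searched as ATTGG, any base and CCACG, shares its CCACG end with the ERSE. No member held both. ERSE-II stood in Herpud1 and Dnajb11, against 0.0444% of all genes with a promoter. The Xbp1 element TGACGTGG was in 0 of the 29 promoters, against 0.714% of all genes. A CARE core, TGATGNAA, was in 3 members, Herpud1, Chac1 and Trib3, against 4.51% of all genes. In Trib3 the CARE lies 14 to 21 bases after the first transcribed base, and in Dnajb11 the ERSE-II lies 7 to 17 bases after it. Neither is printed. The stretches of Herpud1, which carries both a CARE and an ERSE-II, and of Chac1 are given below with their matches in capitals. In both genes the CARE lies on the opposite strand and reads as the reverse complement of TGATGNAA.
Herpud1, chr8:94386297-94386407, plus strand: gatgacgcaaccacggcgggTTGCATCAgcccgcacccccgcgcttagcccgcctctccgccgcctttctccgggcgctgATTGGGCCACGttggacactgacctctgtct
Chac1, chr2:119351029-119351076, plus strand: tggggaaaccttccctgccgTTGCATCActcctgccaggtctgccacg

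**Figure D1:**
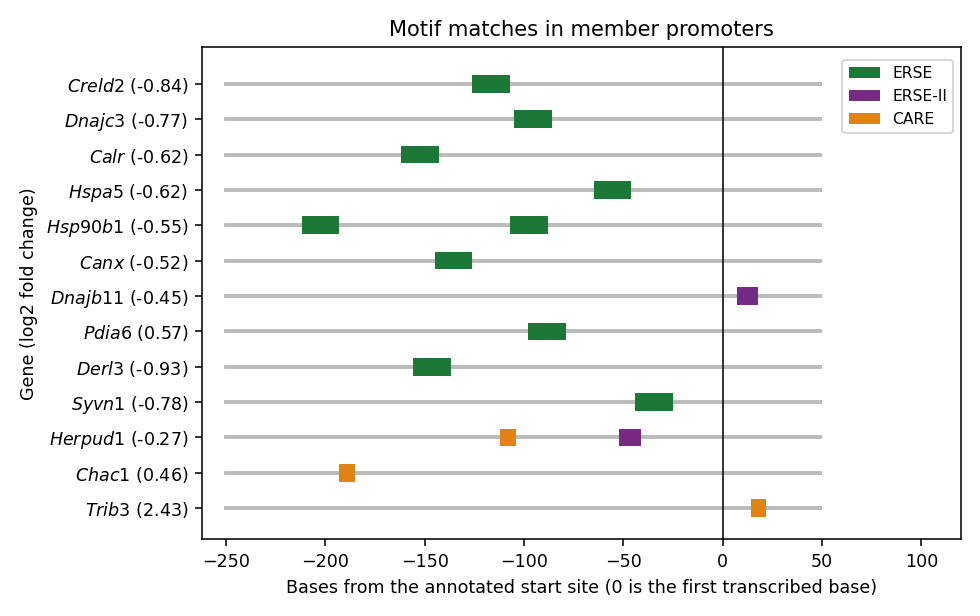
Motif matches in the promoters of the 13 members that hold one. The x axis gives the distance from the annotated start in bases, with 0 the first transcribed base. Grey lines are the 300 bases searched, bars are matches coloured by motif, and the number beside each gene is its log2 fold change between tumors and normal livers. The ERSE matches run from position -212 in Hsp90b1 to position -26 in Syvn1.

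All values below are expression values, the processed signal of a probe divided by the 75th percentile of its array. They have no unit and compare arrays for 1 probe, not probes with each other. Fold changes are log2 differences between the means of the 3 tumors and the 3 normal livers, fitted with limma over all tested probes, and a gene is called at a Benjamini-Hochberg adjusted p under 0.05. Of all genes tested, 34.2% were called, 13.1% higher and 21.0% lower in the tumors, and the groups did not overlap in 51.8%. Normal livers were hybridised on 1 slide and tumors on another, and this difference cannot be told apart from that between tissues. Around the spots, the background had a median of 42 to 45 for normal livers and 22 to 23 for tumors. The 75th percentile lay between 124 and 183 intensity units on the 6 arrays, with 44.6% to 48.8% of the spots well above background and 0 saturated. Tested probes correlated at 0.980 to 0.992 between arrays of 1 group and at 0.914 to 0.950 between a normal liver and a tumor. With 3 against 3 arrays the smallest two-sided p of an exact permutation test for a single gene is 0.1. All 33 members were well above background on all 6 arrays.

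Of the 33 members, 3 rose and 7 fell in the tumors, and 23 were not called. The genes that rose were Pdia6, Xbp1 and Trib3, and the genes that fell were Hspa5, Hsp90b1, Canx, Hyou1, Edem1, Syvn1 and Creb3l3. The share of members called, 30.3%, lies near the 34.2% of all genes, and the share that fell, 21.2%, near 21.0%. The members' median log2 fold change was -0.45, against -0.13 for all genes tested. Log2 fold changes were below 0 in 23 of 33 members and in 61.9% of all genes. Only Hyou1 and Trib3 were both called and changed by 2-fold or more, as 14.6% of all genes did.

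Within the members, the 2 arms had medians on opposite sides of that of all genes. In the Atf6/Xbp1 arm 6 of 22 genes fell (27.3%, against 21.0% of all genes) and 1 rose, and the median log2 fold change was -0.54. In the Perk/Atf4 arm 1 of 6 genes rose (16.7%, against 13.1% of all genes) and 0 fell (against 21.0% of all genes), and the median was 0.35. Trib3 was the gene called. By array, the median of the Atf6/Xbp1 arm against the mean of the normal livers was -0.11, -0.13 and 0.25 in normal livers 1, 2 and 3 and -0.80, -0.49 and -0.42 in tumors 1, 2 and 3. Each normal liver was above each tumor. The same median of the Perk/Atf4 arm was -0.04, -0.19 and 0.06 in the normal livers and 0.69, 0.14 and -0.01 in the tumors, where tumor 3 lay between the normal livers. Without tumor 1 the median log2 fold change of the Perk/Atf4 arm was 0.09, and that of the Atf6/Xbp1 arm -0.41. Scaling by spike-in probes instead moved the median of all genes by 0.16 to 0.03, and then the medians of the arms were -0.38 and 0.50 and 0 genes of the Atf6/Xbp1 arm were called lower. With that scaling 2376 genes were called higher and 1581 lower over the whole array, against 2452 higher and 3918 lower with the 75th percentile.

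**Figure D2:**
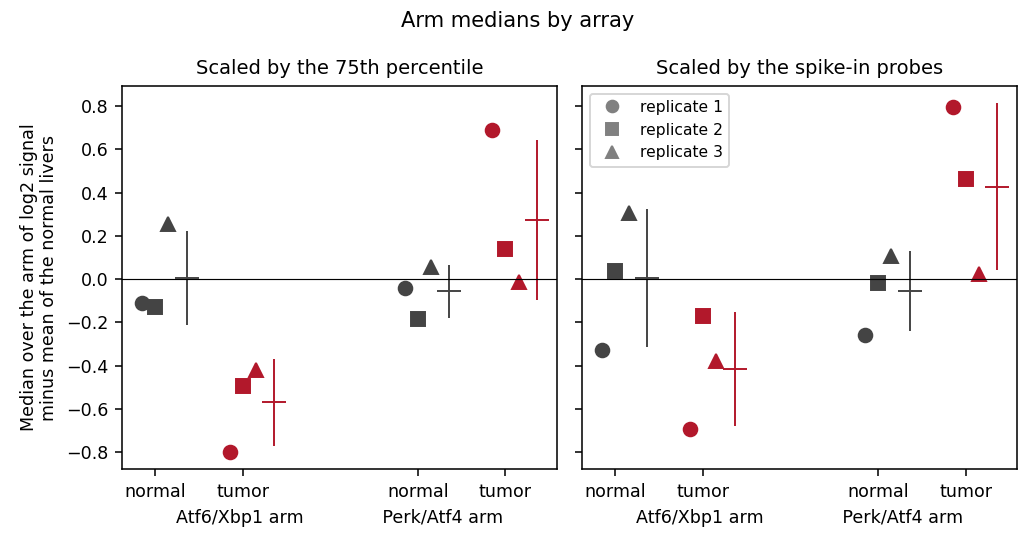
Median of the log2 signals of the 22 genes of the Atf6/Xbp1 arm and the 6 genes of the Perk/Atf4 arm on each array, each gene set against its mean in the normal livers, with the arrays scaled by the 75th percentile (left) or by the spike-in probes (right). Symbols are the replicates, and horizontal bars with lines are the mean ± SD of 3 arrays. Tumors lie below normal livers in the Atf6/Xbp1 arm on the left, with the lowest normal liver at -0.13 and the highest tumor at -0.42, while on the right tumor 2 lies at -0.17 above normal liver 1 at -0.33.

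Normal liver 3 and tumor 1 marked the ends of the range in the Atf6/Xbp1 arm. Normal liver 3 held the highest of the 6 values in 17 of the 22 genes, and tumor 1 held the lowest in 14. In the Perk/Atf4 arm tumor 1 held the highest of the 6 values in 5 of 6 genes. The spread among the normal livers was widest in Creld2, Dnajb9, Herpud1 and Derl3, as the plot of member genes by array shows. Without normal liver 3 the median of the Atf6/Xbp1 arm was -0.46 and 1 of its genes was called lower, and without tumor 1 or tumor 2 that count was 1 as well.

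**Figure D3:**
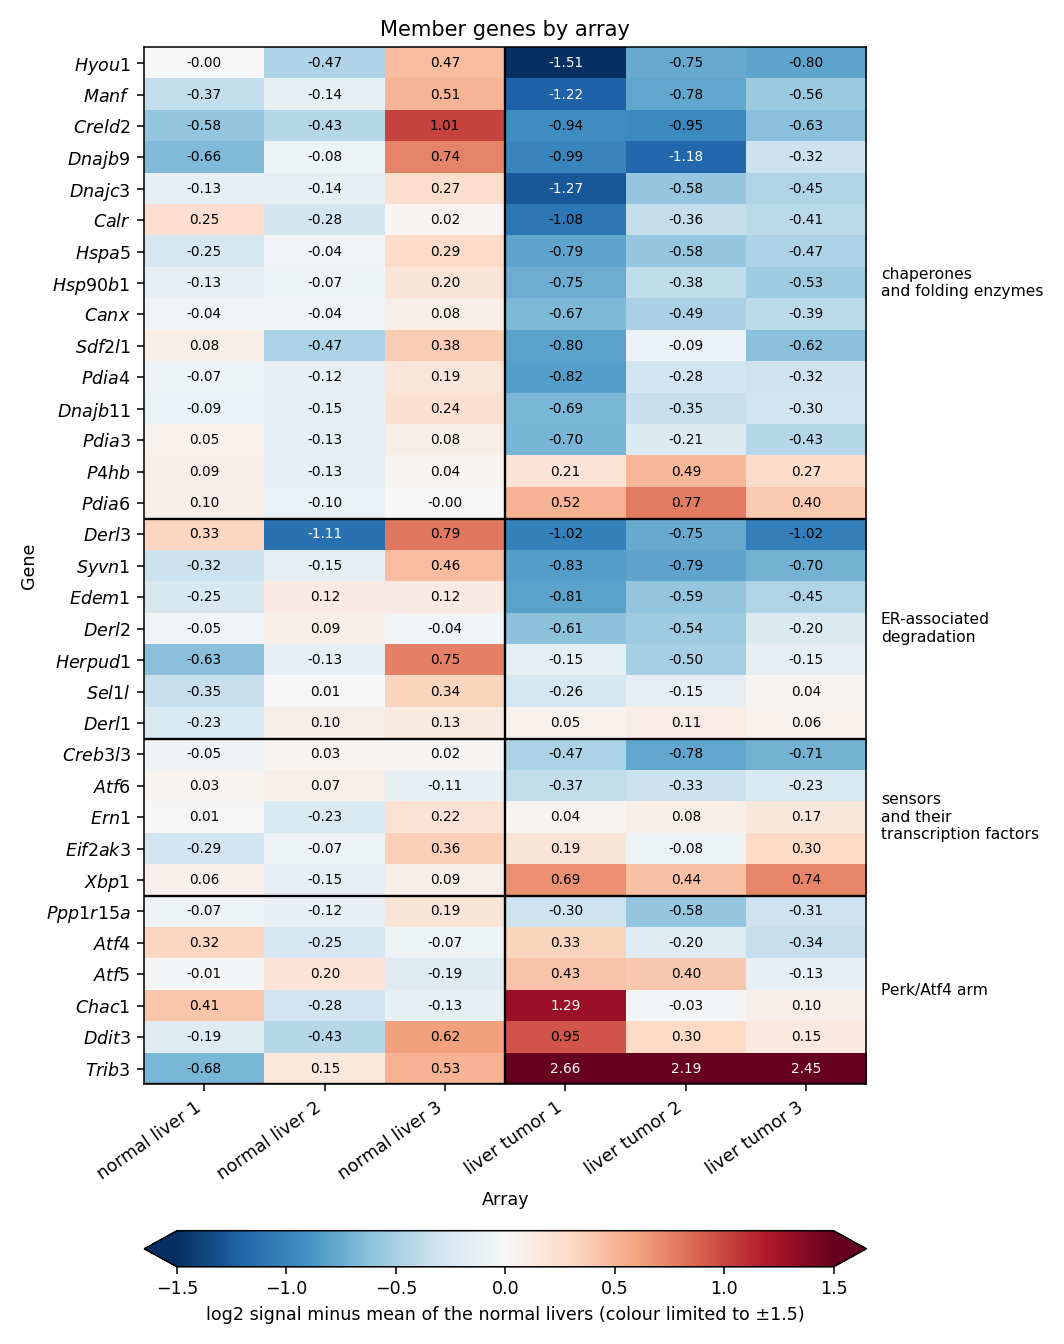
Log2 signal of each of the 33 genes on each of the 6 arrays, minus the gene's mean in the 3 normal livers, grouped by role and ordered by log2 fold change within a role. Blue is below and red above that mean, with colours limited to 1.5 in either direction and the value printed in each cell. Tumor 1 is the darkest blue column of the chaperones, with -1.51 in Hyou1, and Trib3 is the darkest red row, with 2.19 to 2.66 in the tumors.

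Most chaperones and folding enzymes were at lower mean levels in the tumors, but few passed the test. Of the 15 genes 4 fell (Hspa5, Hsp90b1, Canx and Hyou1), 1 rose (Pdia6) and 10 were not called, and log2 fold changes were below 0 in 13, with a median of -0.55. The groups did not overlap in 13 of the 15 genes, 11 of them with all tumors below and 2, Pdia6 and P4hb, with all tumors above. Of all genes tested, 21.0% fell, 13.1% rose and 51.8% had groups that did not overlap. Hspa5, which codes for BiP, the central Hsp70 chaperone of the ER and the binding partner that keeps the sensors inactive, read 188, 217 and 272 in the normal livers and 129, 149 and 161 in the tumors. Each tumor was below each normal liver. The mean fell from 226 ± 43.0 to 146 ± 16.3 (SD, n = 3 each), a log2 fold change of -0.62 ± 0.17 (SE, adjusted p = 0.0355). Hsp90b1, the Hsp90 chaperone of the ER, read 149.7, 156 and 187 in the normal livers and 97.1, 125 and 113 in the tumors. Its groups did not overlap either, and its log2 fold change was -0.55 ± 0.15 (SE, adjusted p = 0.0311).

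The lectin chaperones Canx and Calr hold glycoproteins in the ER until they are folded. Canx read 40.5, 40.4 and 44.1 in the normal livers and 26.2, 29.7 and 31.7 in the tumors. The normal livers lay close together and well clear of the tumors, and the log2 fold change was -0.52 ± 0.12 (SE, adjusted p = 0.0188). Calr read 54.3, 37.5 and 46.3 against 21.5, 35.4 and 34.3. The log2 fold change of -0.62 was larger than that of Canx but so was the spread (standard error 0.24), and Calr was not called (adjusted p = 0.0916). Hyou1, a large Hsp70-like chaperone that exchanges the nucleotide of BiP, had a dim signal, with 0.704, 0.510 and 0.973 in the normal livers and 0.247, 0.418 and 0.406 in the tumors. Normal liver 2 lay close above tumors 2 and 3. It had the largest fall of the chaperones, -1.02 ± 0.30 (SE, adjusted p = 0.0421).

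The protein disulfide isomerases, which form and exchange disulfide bonds, differed in direction. Pdia6 rose, with 244, 211 and 226 in the normal livers and 326, 388 and 299 in the tumors. All tumors were above all normal livers, by a log2 fold change of 0.57 ± 0.14 (SE, adjusted p = 0.0225), and the second, dimmer probe of the gene gave 0.77. P4hb read 78.0, 66.6 and 75.1 against 84.3, 103 and 88.2, a log2 fold change of 0.32 that was not called (adjusted p = 0.0988). Pdia3 and Pdia4 had log2 fold changes of -0.45 and -0.47 and were not called either (adjusted p = 0.0682 and 0.0901). Pdia6 and Hspa5 both carry an ERSE upstream of the start, and their log2 fold changes had opposite signs under the 75th percentile, quantile and spike-in scaling.

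The DnaJ cofactors of BiP among the members, Dnajc3, Dnajb9 and Dnajb11, were not called. Dnajc3 read 9.16, 9.07 and 12.03 in the normal livers and 4.13, 6.68 and 7.31 in the tumors, without overlap, and its log2 fold change of -0.77 had an adjusted p of 0.0526. Dnajb9 and Dnajb11 had log2 fold changes of -0.83 and -0.45, and their dimmer second probes gave -0.36 and 0.03. Without normal liver 3 that of Dnajb9 was -0.46. Manf, a secreted ER stress protein, had -0.85 (adjusted p = 0.0536), Sdf2l1, a partner of the DnaJ cofactors, -0.51, and Creld2, another ER stress-inducible protein, -0.84. Creld2 rested much on a single array, with 29.9, 33.3 and 90.0 in the normal livers and 23.4, 23.1 and 28.9 in the tumors. Normal liver 3 was far above the other 2, which lay close above the tumors, and without it the log2 fold change was -0.33.

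Calls among the chaperones rested on few arrays. Hspa5 was called with 1 array left out only where that was normal liver 1, Hsp90b1 only without tumor 2 and Hyou1 only without normal liver 2. Canx and Pdia6 were each called without normal liver 1, tumor 1 or tumor 3, and not without normal liver 2, normal liver 3 or tumor 2. Adjusted p-values then reached 0.0904 for Hspa5, 0.0840 for Hsp90b1, 0.0582 for Canx, 0.105 for Hyou1 and 0.0794 for Pdia6. Log2 fold changes kept their direction in each of these fits. With spike-in scaling the falls were not called, with -0.46 for Hspa5 (adjusted p = 0.262), -0.40 for Hsp90b1 (0.330), -0.36 for Canx (0.342) and -0.86 for Hyou1 (0.0547), while Pdia6 was called at 0.72 (0.0486).

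**Figure D4:**
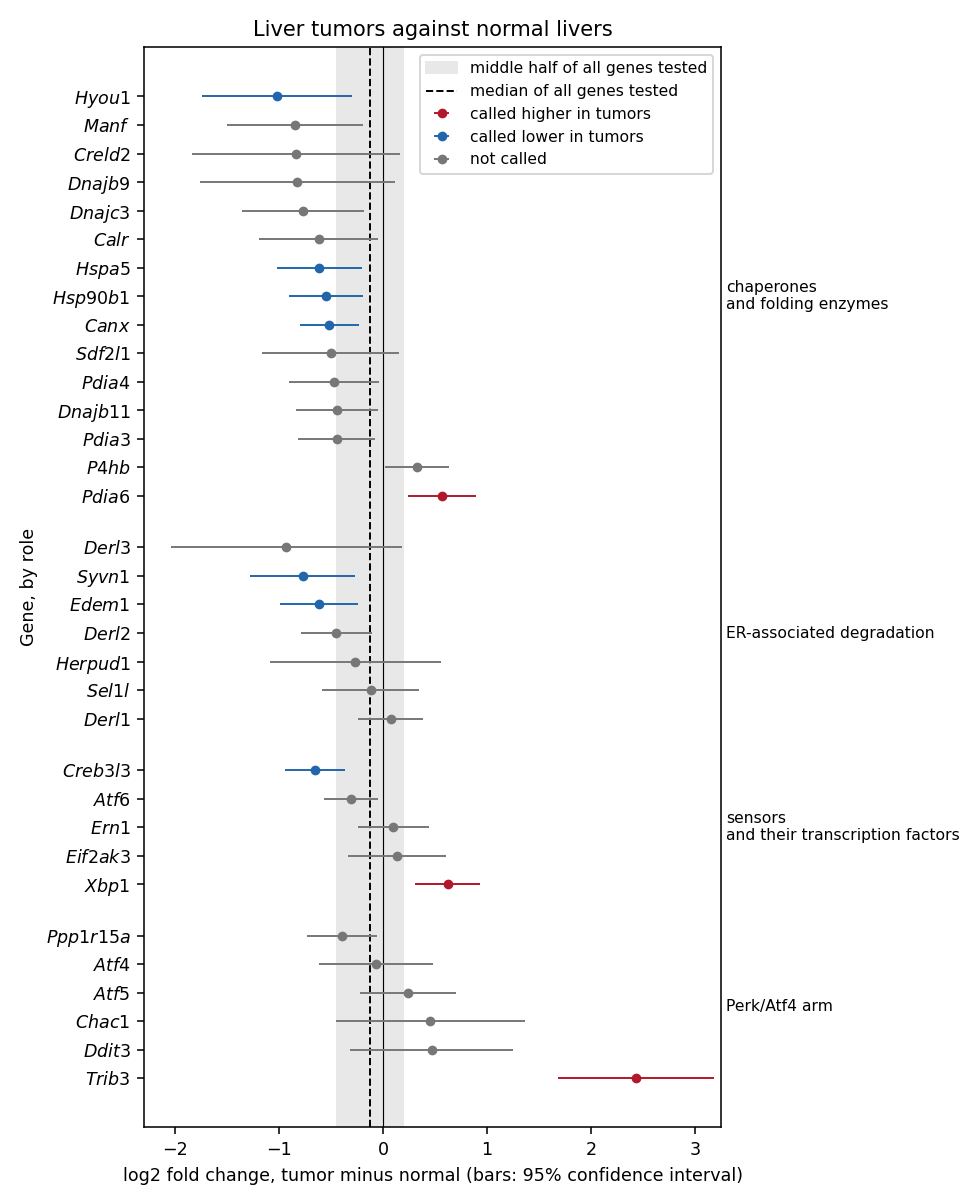
Log2 fold change of the 33 genes between 3 tumors and 3 normal livers, by role, with 95% confidence intervals before adjustment. Blue and red mark genes called lower and higher, grey those not called. The dashed line is the median of all genes tested, -0.13, and the grey band runs from their 25th to their 75th percentile, -0.45 to 0.20. Most chaperones lie left of the dashed line, and Trib3 lies farthest right at 2.43.

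Genes of ER-associated degradation, which return misfolded proteins to the cytosol for the proteasome, fell in 2 of 7 cases and rose in 0. The median log2 fold change was -0.45, and the groups did not overlap in 3 of the 7 genes, against 21.0% of all genes that fell and 51.8% whose groups did not overlap. Syvn1, the ubiquitin ligase Hrd1 at the centre of this machinery, read 76.5, 86.2 and 131 in the normal livers and 53.6, 55.0 and 58.5 in the tumors. The tumors were close together and below all normal livers, with a log2 fold change of -0.78 ± 0.21 (SE, adjusted p = 0.0323). Edem1, which marks misfolded glycoproteins for removal, read 13.0, 16.7 and 16.7 against 8.77, 10.2 and 11.2. These groups were apart as well, and the log2 fold change was -0.62 ± 0.16 (SE, adjusted p = 0.0271).

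Sel1l, the partner of Hrd1, differed little, with 2.63, 3.38 and 4.24 in the normal livers and 2.81, 3.03 and 3.45 in the tumors. Its log2 fold change of -0.12 had a 95% interval from -0.59 to 0.35 and was 0.03 with spike-in scaling. Among the derlins, membrane proteins of the export channel, Derl1 had 0.07 and Derl2 -0.45 (adjusted p = 0.0507), with its other 2 probes at -0.39 and -0.15. Derl3 read 1.33, 0.490 and 1.83 in the normal livers and 0.524, 0.628 and 0.521 in the tumors. Normal liver 2 was below every tumor. With it the log2 fold change was -0.93 and not called (adjusted p = 0.168), and without it -1.49 and called (adjusted p = 0.0091).

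Herpud1, a membrane protein that organises the degradation complex, read 44.8, 63.3 and 117 against 62.5, 48.9 and 62.3. The tumors lay within the range of the normal livers, and the log2 fold change of -0.27 (adjusted p = 0.587) became 0.11 without normal liver 3. Of the 2 called genes, Syvn1 was called only without normal liver 1 or normal liver 3, with adjusted p up to 0.0825 in the other 4 fits with 1 array left out, and Edem1 only without normal liver 1 or tumor 3, with adjusted p up to 0.0902. With spike-in scaling neither was called, at -0.62 (adjusted p = 0.136) and -0.46 (adjusted p = 0.259).

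Among the sensors and their transcription factors, Xbp1 rose and Creb3l3 fell, while the mRNAs of the 3 sensors were not called. Xbp1 read 158, 137 and 160.4 in the normal livers and 243, 206 and 252 in the tumors. Every tumor was above every normal liver, and the mean rose from 152 ± 12.9 to 234 ± 24.5 (SD, n = 3 each), a log2 fold change of 0.62 ± 0.13 (SE, adjusted p = 0.0145). The array has 1 probe for Xbp1, so that the spliced mRNA, from which the active factor is made, has no value of its own here. Xbp1 was called with any 1 array left out except normal liver 2 (adjusted p = 0.0548), and with spike-in scaling at 0.78 (adjusted p = 0.0212).

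Creb3l3 codes for CREBH, a membrane-bound factor of hepatocytes that is cut like Atf6 and acts on genes of lipid and iron metabolism. It read 165, 173 and 173 in the normal livers and 123, 99.03 and 104 in the tumors. The normal livers were close together and the tumors all lower, with a log2 fold change of -0.66 ± 0.12 (SE, adjusted p = 0.00960), the smallest adjusted p among the members that fell. Creb3l3 stayed called with any 1 array left out (adjusted p up to 0.0399) and was not called with spike-in scaling (-0.50, adjusted p = 0.164).

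For the sensors 95% intervals are given before adjustment. They cover the spread between these arrays, and neither the difference between slides nor the choice of scaling. Ern1 had a log2 fold change of 0.10 (95% interval -0.24 to 0.44) and Eif2ak3 0.14 (-0.33 to 0.61), and in both the groups overlapped. A second, dimmer probe of Ern1, well above background on 5 of the 6 arrays, gave 0.57, outside the interval of the brighter probe. It was not called (adjusted p = 0.257). With spike-in scaling Ern1 was at 0.25 and Eif2ak3 at 0.29. Atf6 read 1.02, 1.05 and 0.923 in the normal livers and 0.768, 0.793 and 0.851 in the tumors. Its groups were apart, but the log2 fold change of -0.31 (95% interval -0.57 to -0.05) was not called (adjusted p = 0.0723). Atf6 acts through proteolysis and Perk through phosphorylation, which an expression array does not measure. Ire1 splices the mRNA of Xbp1, and the spliced form has no value of its own here.

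In the Perk/Atf4 arm Trib3 rose, and the other 5 genes were not called. Trib3, a pseudokinase that Atf4 and Ddit3 induce and that acts back on Atf4, read 3.61, 6.43 and 8.33 in the normal livers and 36.5, 26.4 and 31.7 in the tumors. The lowest tumor was above the highest normal liver by more than the range within either group. The mean rose from 6.13 ± 2.38 to 31.5 ± 5.01 (SD, n = 3 each), a log2 fold change of 2.43 ± 0.31 (SE, adjusted p = 0.00307). Trib3 stayed called with any 1 array left out, with log2 fold changes between 2.09 and 2.70 and adjusted p up to 0.0130. It was called under 16 of 17 alternatives. The exception was the methods' t-test paired by replicate number, by which 0 genes of the array passed the adjusted threshold.

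Atf4 itself is regulated mainly at translation. Its mRNA read 170.4, 115 and 129 in the normal livers and 171, 119 and 107 in the tumors. The groups covered the same range, and the log2 fold change was -0.07 (95% interval -0.62 to 0.48), or 0.14 with quantile normalization and 0.08 with spike-in scaling. Atf5, a related factor, had 0.23 (95% interval -0.23 to 0.70).

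Ddit3, which codes for the pro-apoptotic factor CHOP, read 0.837, 0.707 and 1.46 in the normal livers and 1.84, 1.18 and 1.06 in the tumors. Chac1, a glutathione-degrading enzyme downstream of Atf4, read 3.11, 1.92 and 2.14 against 5.71, 2.30 and 2.51. In both the groups overlapped, and tumor 1 was the highest array. Their log2 fold changes of 0.47 and 0.46 were not called (adjusted p = 0.312 and 0.394), and without tumor 1 they were 0.23 and 0.04. That of Ddit3 was 0.25 without normal liver 2 and 0.78 without normal liver 3, and that of Chac1 was 0.70 without tumor 2. Ppp1r15a, the regulatory subunit that reverses eIF2alpha phosphorylation, had -0.40 (adjusted p = 0.0699) with all tumors below all normal livers.

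The other genes of the pathway were described from 9 lists that hold 123 genes, of which 115 were tested. Of these 17 rose and 22 fell, and the median log2 fold change was -0.08. The share called was 33.9%, near the 34.2% of all genes, and the share that fell 19.1%, near 21.0%. The counts of each list below are to be read beside the 13.1% of all genes that rose and the 21.0% that fell. Among other folding and disulfide enzymes of the ER, 3 of 23 rose and 3 fell (26.1% called), with a median of -0.16. Fkbp11, a prolyl isomerase of secretory cells, rose from 0.243, 0.295 and 0.326 to 2.07, 1.45 and 1.46, a log2 fold change of 2.52 ± 0.19 (SE), while Calu rose by 0.83 and Dnajc10 by 0.70. Ero1b, an oxidase that recharges the disulfide isomerases, fell from 4.07, 3.87 and 4.45 to 1.05, 1.42 and 1.52, a log2 fold change of -1.65 ± 0.17 (SE), and Pdia5 (-0.72) and Sil1 (-0.48) fell as well. Each of these 6 genes had groups apart.

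Of other degradation genes, 5 of 16 fell (31.25%, against 21.0% of all genes) and 0 rose, with a median of -0.25. Marchf6 was at -0.997, Rnf139 at -0.57 and Nploc4 at -0.54. Marchf6 and Rnf139 are ubiquitin ligases, and Nploc4 is a cofactor of the p97 ATPase. The genes of ER translocation and signal peptide cleavage centred near 0, with a median of 0.01. Here 2 of 18 were called (11.1%, against 34.2% of all genes), Spcs1 higher (0.43) and Sec62 lower (-0.53). Of transcripts that Ire1 is known to cleave, 1 of 5 fell and 0 rose. The gene that fell, Pdgfrb (-0.76), is also 1 of the 6 markers of stellate cells and fibroblasts, of which 4 fell. Of other ER stress signalling genes and proteases of the sensors, 2 of 10 rose, Creb3l2 (1.03) and Mbtps2 (0.80), the latter the protease that makes the second cut of Atf6, and Atf6b fell (-0.55).

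Genes downstream of Atf4 were called in both directions. Of the amino acid genes 3 of 12 rose and 4 fell (58.3% called, against 34.2% of all genes). The median was 0.65. It includes Mthfd2 and Slc7a5, which were not called. Like 2 of the genes that rose, they passed the filter through the tumors alone, so the filter favours genes that are higher in the tumors. Setting genes not above background in any normal liver at their bound left the median at 0.65. That check cannot remove the effect of the filter. Psph, the last enzyme of serine synthesis, rose from 2.52, 2.32 and 2.03 to 12.3, 11.5 and 8.52, a log2 fold change of 2.22 ± 0.17 (SE). The other 2 that rose, named after their values were seen, were Phgdh and Psat1, the enzymes before it in the same pathway. Phgdh read 8.18, 7.72 and 3.63 in the tumors and was well above background in 2 of 3 normal livers, and Psat1 was well above background in 0 of 3. Both genes passed the filter through the tumors alone. For Psat1, each normal liver was set at the higher of the probe's own signal and the array's lowest signal well above background. Against these values the mean of the tumors was at least 23.9-fold higher. This bound was not tested, and the adjusted p of Psat1 (0.0017, limma) belongs to the fold change without it. Cth, which makes cysteine, fell by 2.02 on the log2 scale, Shmt2 by 1.03, Gpt2 by 0.81 and Slc3a2 by 0.66, so that the fold changes of this list ran from -2.02 upwards to those of the serine genes.

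Of 12 tRNA synthetases, 33.3% were called, against 34.2% of all genes. Cars rose (0.89), and Tars (-1.01), Aars (-0.77) and Eprs (-0.63) fell. Of other stress factors of the Perk/Atf4 arm, 5 of 13 rose and 2 fell (53.8% called), with a median of 0.21. Gdf15, a secreted stress cytokine, rose from 0.941, 1.37 and 1.48 to 9.94, 8.96 and 4.45, a log2 fold change of 2.57 ± 0.34 (SE), and Atf3 (2.03), Nupr1 (1.87) and Ddit4 (1.51) rose as well, all with groups apart. Cebpb (-0.74) and Eif2ak1, a kinase of eIF2alpha that senses heme (-0.69), fell. Fgf21, a hormone of the liver that both Atf4 and CREBH are known to induce and that was chosen after its values were seen, read 0.363, 1.82 and 1.05 against 7.29, 2.43 and 1.502 and was not called (log2 fold change 1.75, adjusted p = 0.121). Among 7 known targets of CREBH, 57.1% were called, against 34.2% of all genes. Hamp (-2.46) and Crp (-1.56) fell, and Apoa4 (5.43) and Apoc2 (1.68) rose, beside the fall of Creb3l3 itself.

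**Figure D5:**
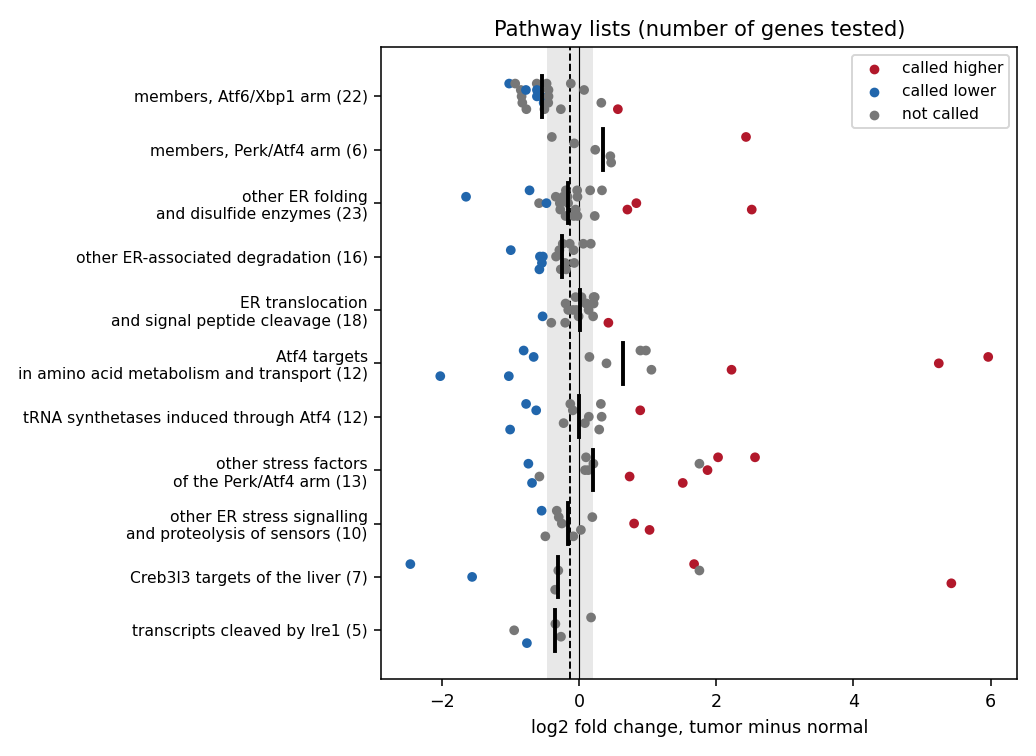
Log2 fold changes of all tested genes of both arms and of the 9 other lists, with the number tested beside each name. Points are genes, red where called higher, blue where called lower and grey where not called, and vertical bars are medians. The dashed line is the median of all genes tested and the grey band their 25th to 75th percentile. Most genes of the Atf6/Xbp1 arm lie left of the dashed line, with a median of -0.54, and the genes downstream of Atf4 spread to both sides.

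The ERSE was read against the fold changes as a description. The 9 members with an ERSE had a median log2 fold change of -0.62, with 4 that fell (Hspa5, Hsp90b1, Canx and Syvn1) and 1 that rose (Pdia6). All 9 belong to the Atf6/Xbp1 arm, whose 22 genes had a median of -0.54. These 22 include the 9 themselves, and also Hyou1, Manf and Derl1, whose promoters could not be searched. The 9 other tested genes with the element had a median of -0.23, with 1 that fell, Ero1b, and 0 that rose.

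Markers of other cell types moved with the groups, and their part in the results was not tested. Hepatocyte markers showed the labelled tissue, with a summed expression value of 7788 to 8619 in the normal livers and 8040 to 8339 in the tumors, and 1 of 8 was called higher and 1 lower. Plasma and B cell markers, whose cells are rich in Xbp1 and ER chaperones, summed to 2.40 to 3.56 in the normal livers and 4.61 to 6.78 in the tumors, with 2 of 5 tested markers called higher, Jchain and Mzb1, and 0 lower. Mzb1, well above background in 1 of 3 normal livers, passed the filter through the tumors alone. So did Pou2af1, in 0 of 3 normal livers, which was tested and not called. Of the defining markers, Tnfrsf17 was well above background on 0 of 6 arrays. Macrophage markers summed to 56.1 to 93.7 and 30.1 to 48.8, with 3 of 5 called lower, and those of stellate cells and fibroblasts to 80.8 to 99.8 and 22.6 to 42.5, with 4 of 6 called lower and Col1a1 higher. Des, called lower, was well above background in 2 of 3 tumors and passed the filter through the normal livers alone. Endothelial markers summed to 53.1 to 65.0 and 46.9 to 49.9 (1 of 5 lower), T cell markers to 6.63 to 8.31 and 6.34 to 8.47 (0 of 2 called), neutrophil markers to 8.14 to 11.2 and 8.53 to 22.0 (0 of 4 called), cholangiocyte markers to 1.94 to 2.32 and 1.55 to 1.91 (0 of 3 called), and pancreatic acinar markers to 1.49 to 1.59 and 1.41 to 1.70 (1 of 2 higher, with Cpa1, Pnlip and Prss2 above background on 0 arrays). These sums add probes of unequal brightness, and a single probe can carry one. Dcn alone read 75.8, 77.3 and 96.4 in the normal livers and 17.8, 27.8 and 37.7 in the tumors, most of the sum for stellate cells and fibroblasts, and Jchain read 0.883, 1.18 and 1.87 against 2.51, 4.99 and 4.31 in that for plasma and B cells. In whole tissue, fewer cells of a type and less RNA per cell cannot be told apart.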

How the data were processed

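Microarray data of 3 normal livers and 3 liver tumors, grouped by their titles, were used. The authors deposited signal intensities of SurePrint G3 Mouse GE arrays, background subtracted and spatially detrended with Feature Extraction, for which the headers of the files give version 10.7.3.1 and the submitters' processing notes 12.0.3.1, and a table of the ratio of that signal to the 75th percentile of all spots of the array, on a linear scale. Every column of the table belonged to a sample.

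Here each processed signal was divided by the 75th percentile of its array and put on the log2 scale. Control spots and outliers were dropped, and spots of the same probe averaged. Testing covered 24898 probes, those well above background in every array of the normal livers or of the tumors, with lmFit and eBayes of limma 3.58.1 under R 4.3.3. Tests were two-sided and p-values adjusted by Benjamini-Hochberg over all probes tested. The brightest tested probe, by mean log2 signal, stood for its gene. The number of arrays limits the precision. Symbols, positions and promoters came from RefSeq annotation of GRCm38.p6, which named 27235 probes by accession, 3581 by symbol and 254 by synonym, and the other 24611 kept the name of the design. The fit was tested on simulated data. Python 3.11.15, pandas 2.3.3, numpy 2.4.6 and matplotlib 3.10.9 were used for tables and figures.

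Members, arms, lists, markers and motifs were chosen with earlier results of these data known. All members may be named, and of each other list up to 4 called genes a direction with the largest change among those above background on all 6 arrays. A gene that this rule would name is not reported here. Alternatives were quantile normalization, normexp with an offset of 50, spike-in scaling, no filter or a stricter filter on dim probes, the deposited ratios, a block for the replicate number, a trend in eBayes, averaging the probes of a gene, the methods' t-test unpaired and paired, and leaving out each array. The t-tests were paired by replicate number and read at an adjusted p under 0.05. The study set p under 0.05 and named no adjustment for gene expression, so its threshold was less strict.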

Additional observations from a re-analysis of the deposited data

How the results depend on the processing

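The median of the Atf6/Xbp1 arm was below 0 and that of the Perk/Atf4 arm above 0 under every alternative computed for them, from -0.63 to -0.41 and from 0.09 to 0.52 with 1 array left out, and at -0.38 and 0.50 with spike-in scaling, where all genes moved by 0.16. The counts of calls moved more. Members called higher, 3, were 4 with normexp and with quantile normalization, where P4hb was called as well. They were 1 without a filter on dim probes, 2 by the methods' t-test unpaired, 0 with pairing and 1 to 3 with 1 array left out. Members called lower, 7, were 13 with an eBayes trend, 10 with the stricter filter, 4 with normexp and 3 with quantile normalization. They were 2 by the methods' t-test unpaired, 0 with pairing, 1 without a filter, 0 with spike-in scaling and 2 to 5 with 1 array left out. Of all genes, 22.9% were called lower with the trend, 22.7% with the stricter filter, 18.3% with normexp and 16.4% with quantile normalization. That share was 14.9% by the t-test unpaired, 8.5% without a filter and with spike-in scaling, and 10.8% to 18.0% with 1 array left out. Of the Atf6/Xbp1 arm, 6 genes called lower became 11 with a trend, 3 with normexp, 2 with quantile normalization, 1 by the t-test unpaired and 0 with pairing, 0 without a filter, 0 with spike-in scaling and 1 to 4 with 1 array left out. With the stricter filter Dnajc3, Manf and Derl2 of that arm were called lower as well. The Perk/Atf4 arm had 0 genes called lower and 1, Ppp1r15a, with a trend. The cause was not tested, beyond that leaving out an array leaves fewer samples and omitting the filter adds probes to the adjustment.

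Over all genes, the share called was 34.2%, and 16.6% without a filter, 21.2% with spike-in scaling, 22.3% by the t-test unpaired, 0 genes by the t-test with pairing and 20.8% to 29.8% with 1 array left out. The replicate numbers were not taken to pair the samples, since the labels do not say that they do. The methods of the study name a paired t-test. The deviations of same-numbered arrays correlated at 0.0688, 0.1321 and 0.0506, and 4 of the 6 arrays correlated best with their own number. Deviations within groups of 3 arrays are not independent, so these values cannot settle the pairing. With the replicate number as a block, 2 members were called higher and 9 lower, and 29.2% of all genes were called. Pdia6 (adjusted p = 0.0533) and Hyou1 (0.0531) were then not called, and Dnajb9 (0.0433), Dnajc3 (0.0375) and Manf (0.0179) were called lower. Small fold changes turned direction. With 1 array left out, that of Herpud1 ran from -0.58 to 0.11 (without normal liver 3), that of Sel1l from -0.30 to 0.048 (without normal liver 3), that of Derl1 from -0.042 (without normal liver 1) to 0.14, that of Ern1 from -0.015 (without normal liver 2) to 0.21, that of Eif2ak3 from -0.0069 (without normal liver 1) to 0.31, and that of Atf4 from -0.27 to 0.091 (without normal liver 1, and 0.066 without tumor 3). With spike-in scaling that of Sel1l was 0.034 and that of Atf4 0.085, and with quantile normalization that of Atf4 was 0.14.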
